A study of Mus musculus with 4 samples.

Results

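The genes of the proteasome, the protease complex that degrades ubiquitin-tagged proteins, were examined in 4 RNA-seq libraries that the labels assign to T-helper 2 cells of the mouse. Members were the genes whose symbol starts with Psma, Psmb, Psmc, Psmd, Psme, Psmf or Psmg followed by a digit, without names that carry a dash or ps, each considered with the gene that overlaps it on the opposite DNA strand. The rule gave 50 of the 50600 genes counted, all annotated as protein-coding, and left out 4 dashed names that had 0 counts in every library. The 50 include Psmc3ip, which is not a proteasome subunit, and are together called proteasome genes below. All samples were primary cells of mouse strain C57BL/6NJ with no stated treatment, of unknown age and with sex not collected, and they form 1 group, so the comparisons are between genes within the libraries. In the file headers the samples stand for hour 0 of a time course of Th1 and Th2 cells, and the labels link a differentiation protocol but give no time, so how far the cells had differentiated is not known. The samples are biological replicates 1 to 4 that share 1 donor identifier, and separate mice are not stated, so p-values measure only the spread between these 4 samples, which may be technical.

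The proteasome has a barrel-shaped 20S core made of rings of alpha subunits, which gate the entry, and rings of beta subunits, of which a few cut peptide bonds. A 19S cap of ATPases and non-ATPase subunits binds ubiquitin chains, unfolds the substrate and feeds it into the core. Lymphocytes and cells exposed to interferon gamma exchange the constitutive catalytic subunits for inducible ones and so form the immunoproteasome, which yields peptides for MHC class I, and the PA28 activators can replace the 19S cap.

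The libraries held 1452053 to 2351916 counts, of which the 50 genes took 8810 in all, or 0.111% ± 0.00960 per library (SD, n = 4). A count of 0 allows up to 1.28 to 2.07 CPM (counts divided by a library's total and rescaled), taking 3 counts per library, and this limit covers counting error only. The library kit is not given in the sources used here, and whether the strand setting used for counting matches the libraries was not tested on the reads. Of protein-coding genes, 52.6% of those without an overlapping opposite-strand gene had no count, against 21.4% of those with an exon overlap. If the setting is the reverse, counts given for a gene of an overlapping pair may be fragments of the other gene. Counts of a gene without an overlap may then also be fragments from its other strand. Every level, rank and direction given here is to be read under that limit. Each count gives the fragments placed on a gene's annotated strand under the setting used, and it was not read as the level of the gene's transcript, because many genes were outnumbered by a gene on the other strand. In bulk RNA, fewer cells of a type and less RNA per cell cannot be told apart. All 7 T cell markers examined reached a mean of 1 TPM (counts per exon length, scaled to the same total in each library), as did 3 of 5 T-helper 2 markers, while Il5 and Il13 were at 0. Of these markers, Cd3e, Gata3, Ptgdr2 and Il5 have an opposite-strand exon overlap, so the strand limit holds for them too. Among markers of other cells, 1 of 4 of B cells, 2 of 4 of myeloid cells, 1 of 4 of CD8 and NK cells, 2 of 3 of mast cells and basophils and 1 of 3 of erythroid cells reached 1 TPM, and Cd79b, Ms4a1, Lyz2, Nkg7, Mcpt8, Hbb-bt and Hba-a1 were at 0. The summed level of these lists ranged over the libraries from 30.6 to 40.8 CPM for B cells, 295.9 to 388 CPM for myeloid cells, 0 to 4.13 CPM for CD8 and NK cells, 46.8 to 81.6 CPM for mast cells and basophils and 10.6 to 31.2 CPM for erythroid cells, against 234.6 to 373 CPM for T cells. Single genes carried several of these sums, with 2680 counts for Csf1r, which has an opposite-strand exon overlap, against 50 for Tyrobp, 10 for Itgam and 0 for Lyz2 of the myeloid list, 292 for Cd79a as the only B cell marker with a count and 150 for Alas2 as the only erythroid marker with one. Alas2 also has an opposite-strand exon overlap. Of the mast cell and basophil list, Cpa3 had 336 counts and Hdc 119. Both had counts in every library, and neither has an overlapping opposite-strand gene. The part of these cell types in the proteasome counts was not tested.

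Most proteasome genes had counts, at low to moderate levels. A mean of 1 TPM or more was reached by 39 of 50 proteasome genes (78.0%), against 7390 of 21764 protein-coding genes (34.0%), and their median was 3.96 TPM, against 0.144 TPM. Of the 50, 11 lay above 10 TPM, 40 had a count in every library, 4 had at most 3 counts over all libraries (Psma8, Psmb11, Psmb5 and Psmg2) and 1, Psma8, had none. In median log2(TPM + 0.1) they stood 5.09 ± 0.31 above all protein-coding genes (SD, n = 4), a difference that was 2.23 with 1 TPM added in place of 0.1. The protein-coding median lay at the added 0.1 TPM, that is at no count, in replicates 1, 3 and 4, and 44.6% of protein-coding genes had no count in any library, so the added value sets the size of this difference. All 50 proteasome genes had a median of 3.96 TPM, against 3.94 TPM for the 7390 protein-coding genes at 1 TPM or more. In median log2(TPM + 0.1) the values were 1.94 ± 0.42 and 2.04 ± 0.18 (SD, n = 4). The minimum of 1 TPM was set for the protein-coding genes only, so these medians are not of like sets. The 2 genes with the most counts, Psmb9 and Psmc3ip, held 4728 counts, or 53.8% ± 3.60 of the counts of all members per library. Proteasome genes with an opposite-strand exon overlap had a median of 7.06 TPM, those inside or around introns of an opposite gene 4.38 TPM, and those with neither 3.32 TPM, against 1.84, 0.120 and 0 TPM for all protein-coding genes of the same 3 kinds.

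**Figure D1:**
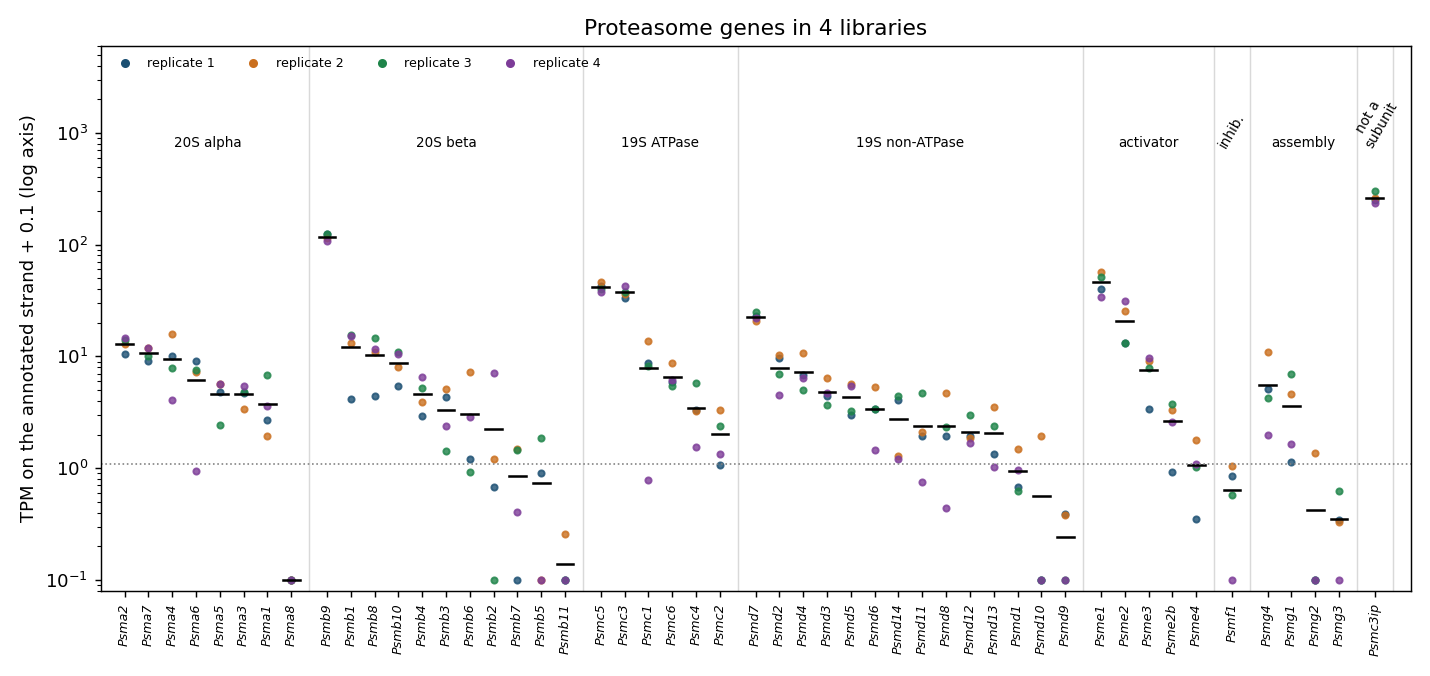
TPM plus 0.1 (log axis) of the 50 genes in each of 4 libraries, grouped by role in the proteasome, with points for libraries, black bars for means and a dotted line at 1 TPM plus 0.1. Psmc3ip, which is not a subunit, and Psmb9 lie highest, 39 of 50 means are at 1 TPM or more, and Psma8 is at 0 in every library.

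Of the 50 genes, 12 shared exon bases with a gene of the opposite strand, 6 met such a gene only in introns and 32 did neither. Over the 12 exon-overlap pairs, 8 proteasome genes had fewer counts per exon length than their opposite gene and 3 had more, by edgeR's quasi-likelihood test (adjusted p of 0.05, Benjamini-Hochberg). Psmc3ip, which is not a subunit, was among the 3. Each of the 11 differences had the same sign in all 4 libraries. Over all 3589 protein-coding genes with such a pair and at least 20 counts, 59.4% were lower than their opposite gene and 28.9% were higher, and 59.9% were lower and 30.1% higher in all 4 libraries. The proteasome counts, 8 and 3 of 12, are near these shares. Among pairs whose opposite gene is not protein-coding, 3 of 4 proteasome genes and 81.1% of 1474 genes were lower. With a protein-coding opposite gene, 5 of 8 proteasome genes and 44.3% of 2115 genes were lower, where 1886 of the 2115 pairs enter from both sides.

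**Figure D2:**
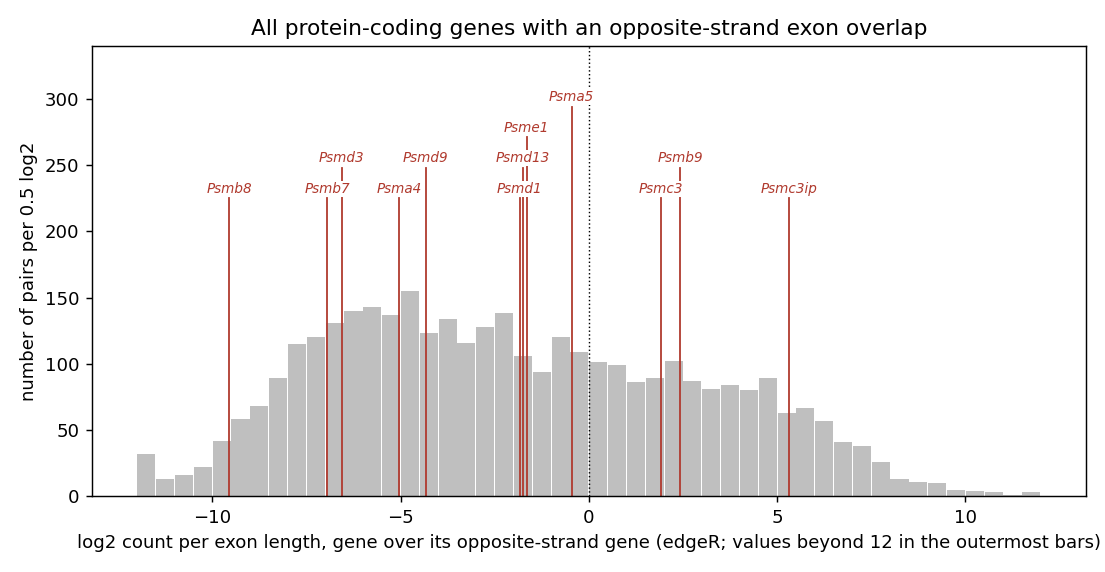
Histogram of the fitted log2 difference in counts per exon length, gene over opposite-strand gene, for 3589 pairs in bars 0.5 wide (pairs beyond 12 in either direction are in the outermost bars), with the 12 proteasome genes as red lines. The 12 run from -9.55 for Psmb8 to 5.32 for Psmc3ip and lie within the range of all pairs.

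The alpha subunits form the outer rings of the 20S core. Psma2 had 10.3, 12.8, 13.8 and 14.4 TPM in replicates 1 to 4, and Psma7 had 9.06, 11.8, 9.98 and 11.9 TPM. These were the highest alpha genes, and neither touches an opposite-strand gene, the nearest being Mrpl32 at 205 bases from Psma2 and Ss18l1 at 76 bases from Psma7. Psma1 was the lowest alpha gene with counts, at 2.59, 1.82, 6.75 and 3.53 TPM. Psma8, an alpha subunit used in the testis, had 0 counts in 4 of 4 libraries. The other alpha genes, Psma3, Psma4, Psma5 and Psma6, averaged 4.50 to 9.40 TPM. Psma6 was uneven, with 16, 13 and 12 counts in replicates 1 to 3 and 1 count in replicate 4.

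Psma4 (ENSMUSG00000032301.13, mm10 chromosome 9, 54950790 to 54958030, plus strand) starts inside AY074887, a protein-coding gene read the other way, and 114 exon bases are common to both, 0 of them in Psma4 coding sequence. Psma4 had 34, 56, 24 and 9 counts, against 320, 324, 324 and 219 for AY074887. In TPM, Psma4 averaged 9.40 ± 5.00 and AY074887 298 ± 17.2 (SD, n = 4), a log2 difference of -5.03 (SE 0.340, adjusted p = 1.03e-09 by edgeR). AY074887 varied little between libraries, and Psma4 was highest in replicate 2 and lowest in replicate 4. The RefSeq promoter window of Psma4, 250 bases before to 50 after its RefSeq start on GRCm38.p6 (chr9:54950609-54950908, plus strand), is shown because all 300 of its bases lie in exons of AY074887, which the capitals mark.
Psma4 promoter window: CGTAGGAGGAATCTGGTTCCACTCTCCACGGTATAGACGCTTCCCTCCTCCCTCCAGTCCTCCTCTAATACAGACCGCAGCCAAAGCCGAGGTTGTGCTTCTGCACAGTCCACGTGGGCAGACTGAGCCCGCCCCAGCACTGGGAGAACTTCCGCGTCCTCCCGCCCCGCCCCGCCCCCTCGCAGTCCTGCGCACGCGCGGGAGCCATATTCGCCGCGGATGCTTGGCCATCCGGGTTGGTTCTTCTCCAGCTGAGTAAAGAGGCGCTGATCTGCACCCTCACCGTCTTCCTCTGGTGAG

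Psma5 meets the antisense gene 1700010K24Rik over 60 exon bases, also head to head. Psma5 had 9, 11, 4 and 7 counts, against 0, 0, 4 and 4 counts for 1700010K24Rik. The sign therefore differed between libraries, with the opposite gene denser in replicates 3 and 4 and at 0 in replicates 1 and 2. The fitted log2 difference was -0.46 (SE 1.11, adjusted p = 0.698 by edgeR), while the mean of the log2 ratios per library, with 0.1 TPM added, was 1.80 ± 4.53 (SD, n = 4). Psma3 meets an opposite gene in introns only, with 89 counts in all against 121 for 3110056K07Rik.

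The beta subunits form the inner rings and include the catalytic ones. Psmb5, Psmb6 and Psmb7 are the constitutive catalytic subunits, and Psmb8, Psmb9 and Psmb10 are their inducible replacements in the immunoproteasome. Psmb9 was by far the highest beta gene, at 124, 116, 125 and 107 TPM, with 2250 counts in all. Psmb8 had 4.32, 10.8, 14.6 and 11.4 TPM and Psmb10 5.31, 7.90, 10.8 and 10.4 TPM. Replicate 1 was the lowest library for both.
Psmb1, a non-catalytic subunit, was the second highest beta gene by mean, at 4.03, 13.0, 15.5 and 15.1 TPM. Psmb5 had 1, 0, 2 and 0 counts, and Psmb7 had 0, 7, 6 and 1. Psmb6 had 3, 20, 2 and 5 counts, so that 20 of its 30 counts came from replicate 2. Psmb11, the thymus-specific catalytic subunit, had 1 count, in replicate 2. The non-catalytic Psmb2, Psmb3 and Psmb4 averaged 2.16, 3.20 and 4.54 TPM. For Psmb2, 8 of 11 counts were in replicate 4.

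Each inducible gene had more counts per exon length than its constitutive counterpart in 4 of 4 libraries. Summed over the libraries and not divided by length, the inducible genes had 2467 counts and the constitutive ones 47. Most of the 2467 came from Psmb9, with 2250, against 143 for Psmb8 and 74 for Psmb10. Psmb9 exceeded Psmb6 38.4-fold in summed counts per length (exact 95% interval 26.8 to 57.0), with log2 ratios of 6.67, 3.99, 7.09 and 5.21. Psmb8 exceeded Psmb5 15.2-fold, with an interval of 5.09 to 74.5 because Psmb5 had 3 counts. Psmb5 also shares 109 exon bases with Mir686 on its own strand, so its counts are uncertain. Psmb10 exceeded Psmb7 10.6-fold, with an interval of 5.94 to 20.3. Leaving out a single library moved both of the first pair by over 1.5 times, as Psmb9 exceeded Psmb6 82.9-fold without replicate 2 (1621 against 10 counts, interval 44.98 to 173), and Psmb8 exceeded Psmb5 29.0-fold without replicate 3 (91 against 1 count, interval 5.07 to 1157). The mean log2 ratio with 0.1 TPM added was 5.74 ± 1.42 for Psmb9 over Psmb6, 4.73 ± 2.42 for Psmb8 over Psmb5 and 3.95 ± 1.55 for Psmb10 over Psmb7 (SD, n = 4). With 1 TPM added it was 5.16, 2.82 and 2.50 in the same order, and with 0.01 TPM it was 5.82, 6.43 and 4.90. Leaving out a library gave 5.29 to 6.32 for Psmb9 over Psmb6 and 3.35 (without replicate 1) to 4.46 for Psmb10 over Psmb7. For Psmb8 over Psmb5 it gave 5.53, 4.04, 5.31 and 4.02 without replicates 1, 2, 3 and 4 in turn. Every one of the 5 ratios examined, these and the PA28 ratios given with the activators, had an exact two-sided sign-flip permutation p of 0.125 and an adjusted p of 0.125 over the 5, the smallest that 4 libraries allow, so the design could not reach 0.05. Since the counts of Psmb7, Psmb8, Psmb9, Psmb10 and Psme1 sit beside those of opposite genes described below, the ratios were not read as ratios of transcripts.

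**Figure D3:**
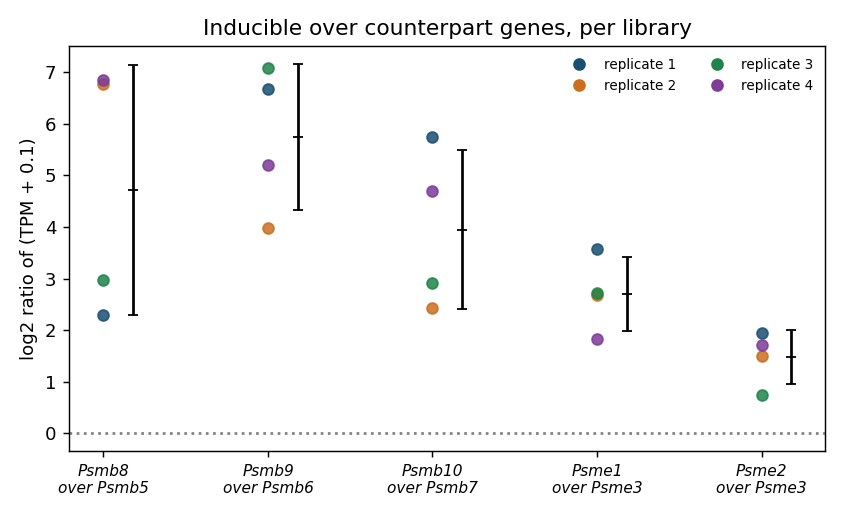
Log2 ratio of TPM plus 0.1 between proteasome genes, first-named over second-named gene, in each of 4 libraries, with points for libraries, and mean and SD. All 5 ratios are above 0 in 4 of 4 libraries, and those over Psmb5 and Psmb7, which had 3 and 14 counts, spread most.

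Psmb8 and Psmb9 are neighbours in the MHC region of chromosome 17, together with Tap1 and Tap2, the transporter that carries peptides into the endoplasmic reticulum. Psmb8 (ENSMUSG00000024338.14, mm10 chromosome 17, 34197721 to 34201454, plus strand) shares 186 exon bases, all in its coding sequence, with the antisense gene Gm20496. Psmb8 had 17, 44, 52 and 30 counts, against 7483, 6674, 6480 and 5123 for Gm20496. The groups of values lay far apart in every library. Gm20496 ranked 12 of 50600 genes by mean TPM, at 7546 ± 564, against 10.3 ± 4.30 TPM for Psmb8 (SD, n = 4), a log2 difference of -9.55 (SE 0.273, adjusted p = 8.33e-14 by edgeR), or 751-fold. Not divided by exon length, the log2 difference in counts was -7.51. The overlap is 28.1% of the exon length of Gm20496, which also shares 165 exon bases with Tap2, and a count per gene does not say where in the gene its fragments lay. The Gm20496 exons that meet Psmb8 are shown from GENCODE release 21, 5′ to 3′ on the minus strand, since this gene had the most counts of any opposite to a proteasome gene. Capitals mark the 117 bases of the first (chr17:34200019-34200257) and the 69 bases of the second (chr17:34199316-34199574) that lie in exons of Psmb8.
Gm20496 exon of 239 bases: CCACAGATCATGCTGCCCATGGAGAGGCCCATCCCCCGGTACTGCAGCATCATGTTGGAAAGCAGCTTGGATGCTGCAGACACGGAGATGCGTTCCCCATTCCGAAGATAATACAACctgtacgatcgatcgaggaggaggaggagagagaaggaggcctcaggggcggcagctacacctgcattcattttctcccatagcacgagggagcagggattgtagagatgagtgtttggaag
Gm20496 exon of 259 bases: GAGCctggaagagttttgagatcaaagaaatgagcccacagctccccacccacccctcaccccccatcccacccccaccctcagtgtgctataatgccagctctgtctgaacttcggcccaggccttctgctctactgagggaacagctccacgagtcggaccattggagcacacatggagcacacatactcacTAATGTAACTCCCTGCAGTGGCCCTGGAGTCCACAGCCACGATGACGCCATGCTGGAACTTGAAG

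**Figure D4:**
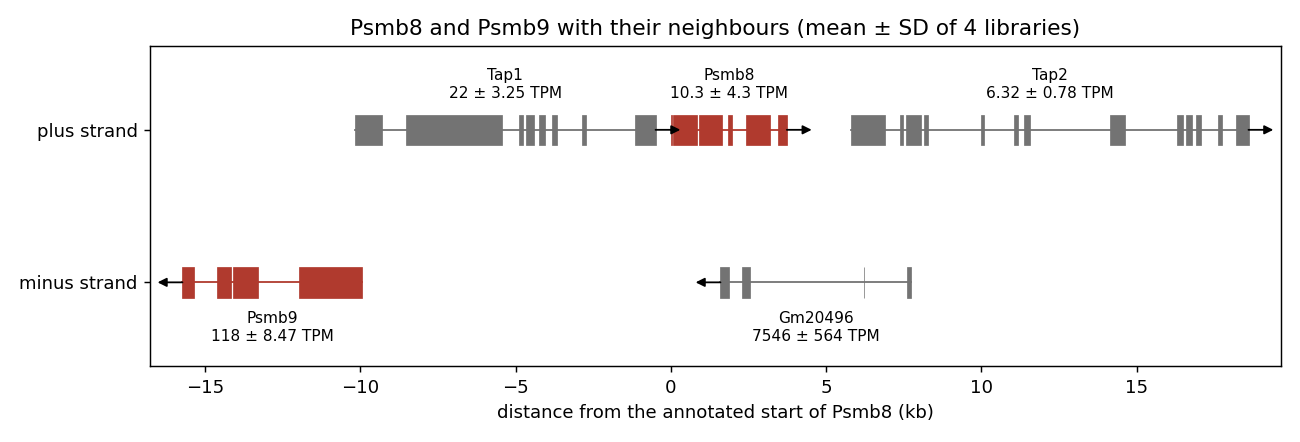
Exons (boxes) of Psmb8 and Psmb9 (red) and of neighbouring Tap1, Tap2 and Gm20496 (grey) by strand, against distance in kb from the annotated start of Psmb8, with mean TPM ± SD over 4 libraries and arrows for the direction of transcription. Gm20496, at 7546 TPM, meets inner exons of Psmb8 and an exon of Tap2, while Psmb9, at 118 TPM, and Tap1, at 22.0 TPM, meet head to head.

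Psmb9 (ENSMUSG00000096727.2, mm10 chromosome 17, 34181988 to 34187764, minus strand) and Tap1 start close together and run apart, sharing 212 exon bases, 0 of them in Psmb9 coding sequence. Here the order was the other way, with 650, 629, 597 and 374 counts for Psmb9, against 180, 212, 147 and 97 for Tap1. Psmb9 averaged 118 ± 8.47 TPM and Tap1 22.0 ± 3.25 TPM (SD, n = 4), a log2 difference of 2.43 (SE 0.194, adjusted p = 8.65e-09 by edgeR). The Psmb9 promoter window from RefSeq (GRCm38.p6, chr17:34187281-34187580, minus strand) is shown because its upstream end reaches Tap1, and capitals mark the 28 bases there that lie in Tap1 exons. The RefSeq start itself lies outside the Tap1 exons.
Psmb9 promoter window: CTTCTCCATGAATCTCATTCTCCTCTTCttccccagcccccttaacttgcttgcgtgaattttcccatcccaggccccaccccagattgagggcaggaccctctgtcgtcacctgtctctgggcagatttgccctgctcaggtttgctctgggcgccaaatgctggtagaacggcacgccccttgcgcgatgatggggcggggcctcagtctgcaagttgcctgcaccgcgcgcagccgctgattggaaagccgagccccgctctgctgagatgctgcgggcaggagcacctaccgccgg

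Psmb7 runs tail to tail into Nek6, a mitotic kinase gene, over 405 exon bases, 261 of them coding in Psmb7. It had 0, 7, 6 and 1 counts, against 1635, 1401, 1331 and 1117 for Nek6, so that no library brought them near each other. Their means were 0.757 ± 0.709 TPM for Psmb7 and 99.6 ± 9.67 TPM for Nek6 (SD, n = 4), a log2 difference of -6.95 (SE 0.369, adjusted p = 5.23e-11 by edgeR). Psmb10 lies within the span of the antisense gene Gm16156 without sharing exon bases, and had 13, 20, 24 and 17 counts, against 209, 193, 235 and 145 for Gm16156. That pair was not in the fit, which takes exon overlaps, and Gm16156 also shares 361 exon bases with Slc12a4. Psmb1 has no overlap, but Tbp, which starts 1612 bases from it on the other strand, had 8899 counts.

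**Figure D5:**
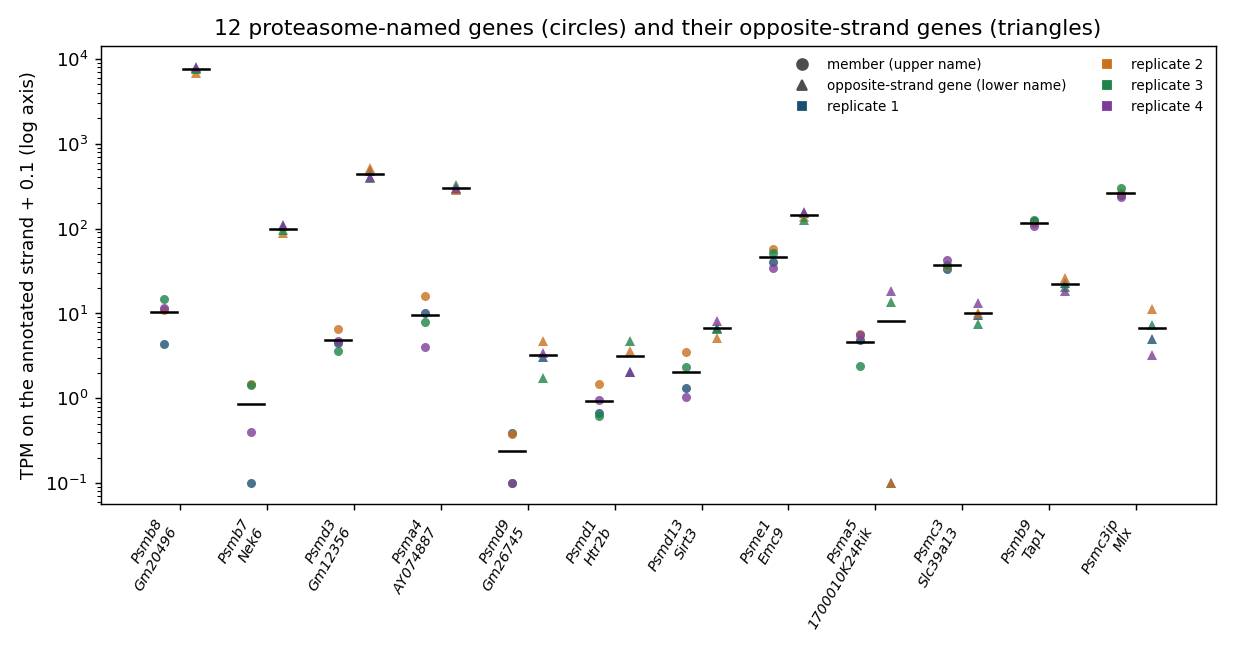
TPM plus 0.1 (log axis) of 12 proteasome genes and, to their right, the opposite-strand gene with the largest exon overlap, in each of 4 libraries. In 8 pairs the proteasome gene is lower in every library, in 3 (Psmc3, Psmb9 and Psmc3ip) it is higher in every library, and for Psma5 the libraries differ in sign.

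The ATPases of the 19S base, Psmc1 to Psmc6, all reached 1 TPM. Psmc5 had 42.9, 45.9, 40.1 and 37.4 TPM and Psmc3 33.1, 36.4, 37.6 and 42.4 TPM. These led the class and varied little between libraries. Psmc2 had 0.968, 3.21, 2.28 and 1.24 TPM, and Psmc4 3.22, 3.11, 5.67 and 1.45 TPM. Psmc5 has no overlap and had 304 counts in all, against 84 for its nearest opposite gene, Smarcd2, 59 bases away. Psmc1, at 19, 31, 16 and 1 counts, was almost missing from replicate 4, and Psmc6 averaged 6.45 TPM. Psmc3 meets Slc39a13, a zinc transporter gene, tail to tail over 215 exon bases, 135 of them coding in Psmc3. It had 124, 141, 128 and 106 counts, against 67, 73, 47 and 61 for Slc39a13. Psmc3 was thus the higher in each library, at 37.4 ± 3.86 TPM against 10.03 ± 2.34 TPM (SD, n = 4), a log2 difference of 1.92 (SE 0.286, adjusted p = 1.28e-05 by edgeR).

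Non-ATPase subunits of the 19S cap bind ubiquitin, remove it or hold the lid together. Psmd7, a lid subunit, was the highest, at 22.8, 20.5, 25.1 and 22.1 TPM, and has no opposite-strand gene within 5 kb. Psmd2, a large base subunit, followed with 9.48, 10.2, 6.83 and 4.39 TPM. The lowest were Psmd9, an assembly chaperone of the base despite its symbol, with 3, 3, 0 and 0 counts, and Psmd10, the assembly chaperone gankyrin, with 0, 4, 0 and 0. In between, 11 of the 14 genes reached 1 TPM, among them Psmd4, a ubiquitin receptor, at 7.12 TPM, and Psmd14, the deubiquitinase of the lid, at 2.65 TPM. The class median was 2.46 TPM, the lowest of the 20S and 19S classes, against 7.13 TPM for the ATPases, 5.33 TPM for the alpha and 3.20 TPM for the beta subunits.

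In all 4 Psmd pairs the Psmd gene was lower than its opposite gene in every library, as were 59.9% of all 3589 genes with such a pair. With 4 pairs the class cannot be set apart from that share. Psmd3, a lid subunit, had 31, 47, 23 and 22 counts, against 241, 268, 181 and 136 for Gm12356, a non-coding gene lying inside it with which it shares 17 bases. At 4.72 ± 1.19 TPM against 445 ± 57.4 TPM (SD, n = 4), the log2 difference was -6.57 (SE 0.320, adjusted p = 1.91e-11 by edgeR), and it was -2.76 without division by length. The shared bases are 0.342% of the exon length of Psmd3 and 4.82% of that of Gm12356. Psmd13, another lid subunit, had 6, 17, 10 and 3 counts, against 57, 45, 51 and 46 for Sirt3, a mitochondrial deacetylase gene that runs the other way from it head to head (342 shared exon bases). The log2 difference was -1.76 (SE 0.517, adjusted p = 0.00510 by edgeR), and Sirt3 also shares 418 exon bases with Ric8a. Psmd9 exons hold 1849 bases, or 98.7%, of the exons of the lincRNA Gm26745. Psmd9 had 3, 3, 0 and 0 counts, against 8, 13, 4 and 6 for Gm26745. The log2 difference was -4.33 (SE 0.956, adjusted p = 0.000572 by edgeR).
Psmd1, a large subunit of the base, had 6, 15, 5 and 6 counts, against 6, 11, 13 and 4 for Htr2b, a serotonin receptor gene that lies within it. Those raw counts overlap, and the log2 difference of -1.83 per exon length (SE 0.715, adjusted p = 0.0254 by edgeR) was the least stable of the 11. Its adjusted p was 0.0682 without replicate 1, 0.0542 without replicate 2 and 0.111 without replicate 3. Without division by length the difference was -0.09 (adjusted p = 0.906). Psmd1 also shares 301 exon bases with Gm21972 on its own strand, so its counts are uncertain. Psmd5 and Psmd14 meet Cutal and Gm22403 in introns only, with 2 and 5 counts over all libraries.

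Among the activators, Psme1 and Psme2 encode PA28 alpha and beta, which interferon gamma induces, Psme3 the nuclear PA28 gamma and Psme4 the activator PA200. Psme1 was highest, at 40.3, 57.3, 51.7 and 34.0 TPM, and Psme2 had 13.0, 25.2, 13.0 and 31.3 TPM. Psme3 had 3.30, 8.91, 7.80 and 9.55 TPM, below both in each library. Psme1 exceeded Psme3 6.52-fold in summed counts per length (exact 95% interval 5.30 to 8.08), and Psme2 exceeded it 2.77-fold (2.17 to 3.54). Mean log2 ratios were 2.69 ± 0.71 for Psme1 over Psme3 and 1.47 ± 0.52 for Psme2 over Psme3 (SD, n = 4), both above 0 in 4 of 4 libraries. Not divided by exon length, the Psme2 value was 0.74 and was above 0 in 3 of 4 libraries (exact sign-flip permutation p = 0.25), since both genes had 30 counts in replicate 3. Psme4 had 0.249, 1.69, 0.914 and 0.996 TPM and Psme2b 0.832, 3.22, 3.66 and 2.49 TPM. Psme2b is close in sequence to Psme2 and shares 41 exon bases with 9930111J21Rik1 on its own strand, so its 11 counts are uncertain.
Psme1 touches Emc9, a gene of the endoplasmic reticulum membrane complex, by 14 bases at their ends, 0 of them coding in Psme1. It had 128, 188, 149 and 72 counts, against 541, 500, 405 and 372 for Emc9. Psme1 was lower in each library, at 45.8 ± 10.6 TPM against 143 ± 14.6 TPM (SD, n = 4), a log2 difference of -1.65 (SE 0.224, adjusted p = 4.38e-06 by edgeR). Psme4 meets the pseudogene Gm12103 in an intron, with 4 counts.

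The inhibitor PI31 and the assembly chaperones were low. Psmf1, which encodes PI31, had 7, 9, 4 and 0 counts. Of the chaperones that help build the alpha ring, Psmg4 had 4, 9, 3 and 1 counts and Psmg1 2, 9, 12 and 2. Psmg3 had 1, 1, 2 and 0 counts and Psmg2 0, 2, 0 and 0. The 4 chaperone genes together had 48 counts, too few to order them. Psmg3 shares 280 exon bases with Gm26938, and Psmb5 109 with Mir686, on their own strands.

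Psmc3ip carries a proteasome symbol but encodes a cofactor of meiotic recombination, named for its binding to Psmc3, and is not a subunit. It was the highest gene of the list, at 249, 263, 300.1 and 234 TPM with 2478 counts. It meets Mlx, a transcription factor gene, tail to tail over 385 exon bases, 0 of them coding in Psmc3ip, and had 650, 709, 712 and 407 counts, against 14, 33, 19 and 6 for Mlx. The means were 261 ± 28.5 TPM for Psmc3ip and 6.60 ± 3.46 TPM for Mlx (SD, n = 4), a log2 difference of 5.32 (SE 0.284, adjusted p = 5.54e-11 by edgeR). Mlx was far below Psmc3ip in all 4 libraries.

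The 32 proteasome genes without an overlap include 18 within 5 kb of an opposite-strand gene. For 8 of the 32 the nearest opposite gene had at most 3 counts in all. Among these were Psmb6 beside Gm40193 at 0 and Psmc4 beside Gm44744 at 0.

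Spread between libraries was compared with that of genes with like counts. Of 19 proteasome genes with enough counts, 0 varied between libraries beyond edgeR's trend at an adjusted p of 0.05, and 0 did so at an unadjusted p of 0.05, by an F test of each gene's quasi-dispersion. Over all 5755 genes tested, 16 did (0.278%), and 285 at an unadjusted p of 0.05. The 0 of 19 is near that share and does not set the proteasome genes apart. Psma6, Psmc1 and Psmb6, which were uneven in their counts, were not among the 19. Without the filter on low counts, the same test also called 0 proteasome genes at an adjusted p of 0.05. Of the 19, the nearest to the threshold were Psme2, whose dispersion was 2.25 times the trend (adjusted p = 0.995), and Psma4, at 2.22 times (adjusted p = 0.995). Of 39 members with at least 20 counts, 19 had their highest TPM in replicate 2 and 16 their lowest in replicate 4. The same orders were not counted over all genes, so they cannot be called particular to proteasome genes. Replicate 2 also had the largest share of counts in the ribosomal RNA locus CT010467.1, 16.8%, against 3.47% to 12.6% in the others, and replicate 4 the lowest total. The part of either in these orders was not tested. The level difference from protein-coding genes was 5.16 on the log2 scale without that locus, an alternative added after the data had been seen.

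Genes of the pathway outside the naming rule were mostly counted as well. Of 26 genes for the 19S-associated Adrm1, Usp14 and Uchl5, the assembly factor Pomp, ubiquitin, shuttle factors, the transcription factor Nfe2l1 with its processing enzymes and MHC class I peptide loading, 25 were matched and 23 reached 1 TPM, with a median of 3.15 TPM and 9 with an opposite-strand exon overlap. B2m, the light chain of MHC class I, had 208 ± 53.6 TPM (SD, n = 4). Nfe2l1, which activates proteasome genes when proteasome activity falls short, had 2.47 ± 1.05 TPM and Pomp 3.15 ± 1.05 TPM. Tap1, of the peptide transporter, and Tapbp, which assists peptide loading on MHC class I, had 22.0 ± 3.25 and 20.98 ± 4.98 TPM. Both overlap opposite-strand exons.

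Promoter windows in RefSeq were found for 42 of the 50 genes (45 windows). The letters TGACNNNGC, part of the antioxidant response element, to which Nfe2l1 can bind, were searched on both strands and occurred in 13.3% of these windows, against 12.4% of all 32851 windows of the same length. GAAANNGAA, letters of an interferon response element, occurred in 15.6% (7 genes, Psmb3, Psmb4, Psmc2, Psmd4, Psmd9, Psme1 and Psmg4), against 8.56%, and CCAAT in 33.3%, against 37.4%. The interferon element was first searched with 1 more A at its end, which occurred in 11.1% of the windows (5 genes, Psmb3, Psmd4, Psmd9, Psme1 and Psmg4), against 3.44%, and the shorter letters were taken after those values had been seen. These matches are letters in a window and not binding sites, and no overlap between the motifs was removed.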

How the data were processed

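Per the file headers, the authors aligned read pairs with STAR to mm10 and counted them with featureCounts 1.4.6-p4 over exons of GENCODE mouse release 13, with strand setting 1 and both ends aligned. The deposited values are raw counts, not normalised, with 1 table per sample, and the deposited exon length of each gene in bases was also used. The library kit is not given in the sources used here. Symbols were matched by gene identifier for 50376 of 50600 genes, and gene types and printed exons came from GENCODE release 21 on GRCm38. The members and lists were chosen with earlier results of these data known.

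TPM was computed here from counts and exon lengths, with 0.1 TPM added before taking log2. Opposite-strand genes were found with bedtools 2.31.1, taking the gene with the largest exon overlap (at least 1 base). Each pair entered edgeR 4.0.16 (R 4.3.3) with 8 values, library as a term and an offset for library total and exon length, and p-values were adjusted by Benjamini-Hochberg over 3589 pairs with at least 20 counts. The fit was tested on simulated data. Spread between libraries used filterByExpr, TMM and an intercept-only fit. Ratios were tested with an exact sign-flip permutation over 4 libraries, and intervals of summed counts are Clopper-Pearson at 95% and cover counting error only, since reads lacking molecular identifiers need not be separate molecules. Library totals were 2131288, 2351916, 1923157 and 1452053. No library was a copy of another, with 6.29 to 24.8 chi-square per degree of freedom over the 6 library pairs. Named genes were the members of the exon-overlap pairs, of the ratios, the 2 highest and 2 lowest of each class and those with no count, with other genes named for a count or overlap after their values were seen. Alternatives were DESeq2 1.42.0, other scalings, pseudocounts and overlap minimums, and leaving out each replicate. For promoter windows, the letters searched for the interferon response element were shortened by 1 base after the first result was known, so that they could be printed, and both results are given. Some genes of the lists are not reported here.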

Additional observations from a re-analysis of the deposited data

How the results depend on the processing

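Of 240 alternative values, 223 kept their direction and side of the threshold or their size. Some of them could hardly change. Rescaled library totals are shared by the genes of a pair, and Psma4 over AY074887 was -5.031 with them and without. The smallest sign-flip permutation p was 0.125 with 4 libraries and 0.25 with 3, so only the direction of the 5 ratios could change. Psme2 over Psme3 counted as kept, though it fell from 1.47 to 0.74 with TMM-scaled CPM not divided by length. The 223 are therefore not all evidence of stability. Taking only opposite genes with at least 50% of their exons overlapped kept just 1 proteasome pair, Psmd9 with Gm26745 (98.7%), and Psmd9 was lower. The pair with the next largest share, Psmb8 with Gm20496, is at 28.1%. All other proteasome pairs thus left the fit before any test, and their calls were not lost in a test. Of all genes, 353 were then lower and 55 higher, against 2131 and 1038 in the main fit, which held more pairs. The balance of directions thus moved along with the number of calls, and the reason was not tested. Without each replicate in turn, 7 to 10 genes of the whole table, and 0 proteasome genes, varied beyond the trend. The level difference from protein-coding genes was 2.23 with 1 TPM added. The fitted difference of Psma5 over 1700010K24Rik, which passed no threshold, turned to 2.00 without division by exon length, 0.084 with DESeq2, and ranged from -1.12 to 0.41 when replicates were left out, with 0.13 without replicate 4 and 0.41 without replicate 3. The cause was not tested. That of Psmd1 over Htr2b lost its call without division by length and without replicate 1, 2 or 3, as given with it. Leaving library out of the model (no replicate block) left 8 proteasome genes lower and 3 higher. Counts of a few fragments, as for Psmb5, Psmb7 and the Psmg genes, limit every value that rests on them.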
